A study of Mus musculus with 6 samples.

Results

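The collagens are the main structural proteins of the extracellular matrix, and the deposited count tables name 44 of them among 23420 gene symbols, chosen here as every symbol made of Col, a number, the letter a and a number. The tables hold 1 library for each of 3 Control samples (Le-Cre) and 3 Pea3 TKO samples (Le-cre, Pea3-/-, Ermfl/fl, Er81fl/fl), all lacrimal gland epithelium at E14.5 on a mixed background. The labels call the Controls WT, and the study's controls also included Le-Cre mice heterozygous for the Pea3, Erm and Er81 alleles. Both groups carry Le-Cre, which drives Cre recombinase in the conjunctival and lacrimal gland epithelium. In Pea3 TKO, Pea3 (Etv4) is null in every cell, whereas Erm (Etv5) and Er81 (Etv1) are deleted only where Le-Cre is active, so the surrounding mesenchyme lacks Pea3 alone. The tissue was taken by laser capture from frozen sections, and how many embryos went into a library is not given in the sources used here, so p-values measure the spread between these libraries. The question asked of the comparison was which collagens of the gland epithelium differ when the Pea3 factors are absent.

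Every collagen is built from chains that wind into a rope-like helix, and the classes differ in what the helices then form. Fibrillar collagens pack into long fibrils. FACIT collagens (fibril-associated collagens with interrupted helices) sit on the fibril surface. Collagen IV chains form the sheet-like network of basement membranes, on which epithelial buds grow and branch, while the short-chain collagens VIII and X form lattices. Transmembrane collagens span the cell membrane, and the remaining members include beaded filaments (collagen VI), anchoring fibrils (collagen VII) and the multiplexins XV and XVIII of basement membrane zones. By class the tables named 11 fibrillar, 9 FACIT, 6 basement membrane, 3 short-chain, 4 transmembrane and 11 other collagens.

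Total counts ran from 14194775 to 17860140 per library. The targeted genes were lower in every Pea3 TKO library than in every Control, with Etv5 at 961 to 1202 CPM (counts scaled to a TMM-normalized library of 1000000 counts) in Control and 88.2 to 177 CPM in Pea3 TKO. Epithelial markers were high throughout, with a summed level of 3166 to 3902 CPM in Control and 5595 to 6425 CPM in Pea3 TKO over 7 genes. By the edgeR test given below, 5 of them (Cdh1, Krt8, Krt18, Pax6 and Cldn6) were higher in Pea3 TKO, 71.4% beside 13.6% of all tested genes. Epcam and Trp63 overlapped between the groups. The libraries also differed in Y-linked expression. Summed Y-linked counts (Ddx3y, Eif2s3y, Kdm5d and Uty) stood at 136 to 175 CPM in the Controls and 139 CPM in Pea3 TKO replicate 3, but at 0.445 and 0.21 CPM in Pea3 TKO replicates 1 and 2. Replicate 3 is thus the only Pea3 TKO library with Y-linked expression like that of the Controls. Results are also given for it alone against the 3 Controls, a fit in which the lone library is assumed to vary like the others. A fit of all libraries with Y-linked expression as a covariate sets Pea3 TKO replicates 1 and 2 apart. Its Pea3 TKO effect therefore rests mainly on replicate 3 against the Controls, and these fits are not separate evidence.

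Of the 44 collagens, 32 passed the low-count filter and were tested by edgeR's quasi-likelihood test with Benjamini-Hochberg adjustment over all 13087 genes tested. At an adjusted p threshold of 0.05, 12 were lower and 5 higher in Pea3 TKO, 17 of 32 or 53.1%, where 25.0% of all tested genes were called, 11.3% lower and 13.6% higher. The groups did not overlap for 19 of the 32, against 43.9% of all tested genes. In all 17 called collagens, every Pea3 TKO library lay on one side of every Control. Passing the test favours such a separation, and its share over all called genes was not counted, so it adds no support. The median log2 fold change over the 32 was 0.60, beside 0.01 over all tested genes. Of the 32 values 17 were positive and 15 negative. The sign of this median was not stable, at -1.13 with Y-linked expression as a covariate, -1.12 for Pea3 TKO replicate 3 alone against the Controls and 0.12 without Pea3 TKO replicate 2.

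The bud of Control embryos was dominated by a cartilage-type pair of collagens, II and IX. Scaled per kb of exon, so that genes can be compared, the highest collagens in Control were Col9a3 at 197 ± 2.57 CPM per kb, Col9a1 at 149.7 ± 13.8 and Col2a1 at 121 ± 13.1 (mean ± SD, n = 3). Col18a1 followed at 58.0 ± 4.49 and Col4a1 at 46.6 ± 8.83 CPM per kb. Col2a1 and the collagen IX chains Col9a1, Col9a2 and Col9a3 together made up 59.6%, 59.8% and 59.0% of all collagen counts in the 3 Controls. In Pea3 TKO this share was 8.85%, 9.82% and 19.3%. The grouping of these genes was chosen after their values were seen. The order of levels in Pea3 TKO was led by Col14a1 at 64.5 ± 14.8 CPM per kb, Col9a3 at 53.7 ± 12.2 and Col18a1 at 51.1 ± 6.39, whose spreads overlapped. Col17a1 came next at 35.4 ± 10.6 CPM per kb.

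**Figure D1:**
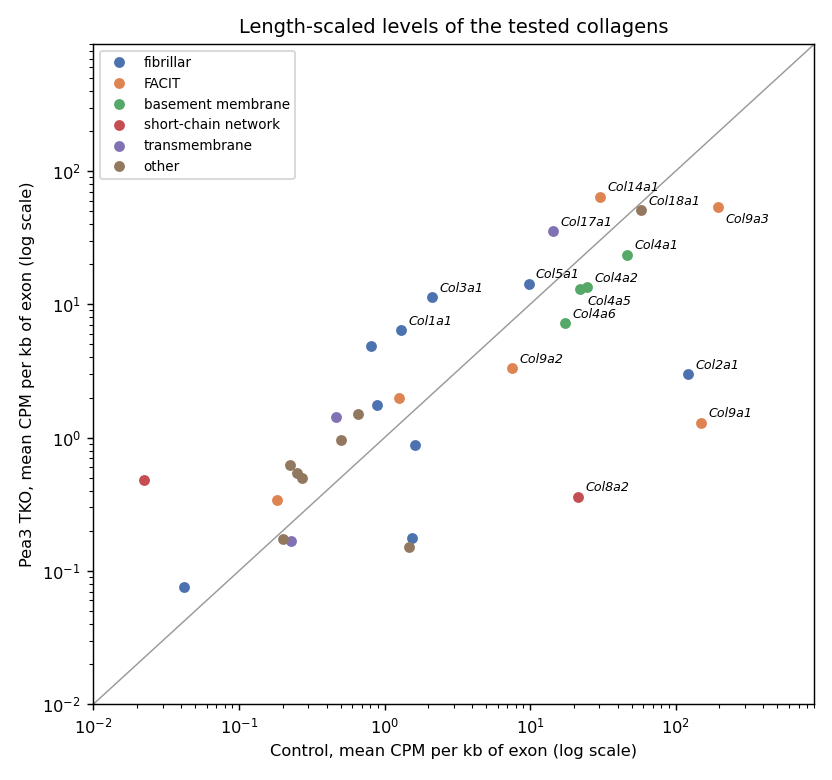
Mean level of each of the 32 tested collagens in Control (x axis) and Pea3 TKO (y axis), both in CPM per kb of exon on log scales, coloured by class. Points under the diagonal are lower in Pea3 TKO. Col2a1, Col9a1 and Col8a2 lie farthest below it, at 121, 149.7 and 21.4 CPM per kb in Control and 2.99, 1.29 and 0.36 in Pea3 TKO.

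The summed level of all collagens was 4174, 4406 and 4854 CPM in the Controls and 2235, 2551 and 1589 CPM in Pea3 TKO. The groups did not overlap (exact two-sided permutation test p = 0.10, the smallest that 3 against 3 samples allow, also in the class shares that follow). Fibrillar collagens held 26.9%, 29.3% and 30.4% of collagen counts in Control and 20.3%, 22.2% and 10.1% in Pea3 TKO (exact permutation p = 0.10, adjusted 0.15 over the 6 classes). Transmembrane collagens went from 2.09% ± 0.78 to 10.5% ± 0.84 (n = 3, exact permutation p = 0.10, adjusted 0.15). The mixed remaining class went from 9.74% ± 1.40 to 18.7% ± 1.45 (n = 3, exact permutation p = 0.10, adjusted 0.15). Most of this class was Col18a1, at 9.16% and 17.2% of collagen counts. Its mean level was 407 CPM in Control and 359 CPM in Pea3 TKO, with overlapping groups. Since the collagen total was lower in Pea3 TKO, a larger share need not be a higher level. Basement membrane collagens had a share of 17.7% ± 2.02 in Control and 19.6% ± 1.34 in Pea3 TKO, with overlapping groups (n = 3, exact permutation p = 0.30). FACIT shares also overlapped, at 39.5% ± 1.41 and 33.4% ± 4.75 (n = 3, exact permutation p = 0.20). Within that class Col14a1 went from 4.75% to 21.3% of collagen counts. Per kb of exon, FACIT and basement membrane shares did not overlap between groups, with differences of -12.7 and 3.01 percentage points (exact permutation p = 0.10 each, adjusted 0.10).

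**Figure D2:**
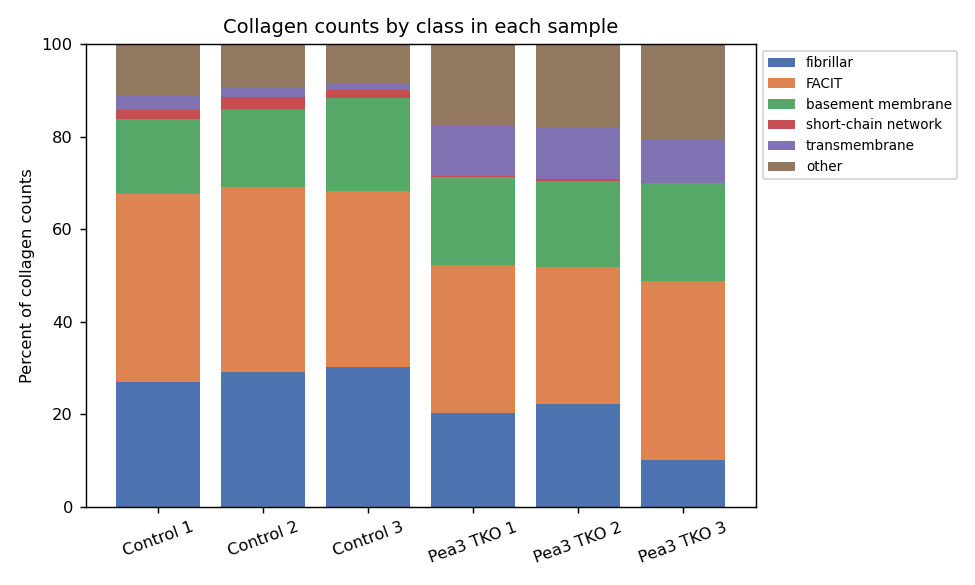
Stacked bars of the percent of collagen counts held by each class (y axis) in each of the 6 samples (x axis). Fibrillar collagens take 26.9% to 30.4% in the Controls and 10.1% to 22.2% in Pea3 TKO. Transmembrane and other collagens take a larger part in all 3 Pea3 TKO samples, of a lower collagen total than in the Controls.

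Among the fibrillar collagens 9 of 11 were tested, 3 were lower and 1 was higher in Pea3 TKO, with a median log2 fold change of 0.84 that turned to -2.74 with the Y-linked covariate and -2.77 for replicate 3 alone. Col2a1 (chromosome 15 from 97975602 to 98004695, GRCm38) encodes the chain of collagen II, the main fibril of cartilage. Its level was 994, 1138 and 1235 CPM in the Controls and 26.1, 24.5 and 32.3 CPM in Pea3 TKO, so the groups lay far apart and each was tight. This was a 40.6-fold lower mean (log2 fold change -5.34, SE 0.17, adjusted p = 1.2e-07), and Pea3 TKO replicate 3 alone against the Controls gave -5.11 (adjusted p = 7.2e-04). Col27a1 (chromosome 4 from 63214004 to 63334991), a fibrillar collagen also known from developing cartilage, had 15.5, 17.4 and 27.2 CPM in Control and 2.92, 0.979 and 2.94 CPM in Pea3 TKO. It was 8.80-fold lower (log2 fold change -3.13, SE 0.44, adjusted p = 0.0011), with Control replicate 3 above the other Controls.

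Col11a1 (chromosome 3 from 114030540 to 114220718) encodes a chain of collagen XI, which nucleates collagen II fibrils. The Controls had 17.8, 24.3 and 19.6 CPM and Pea3 TKO 13.1, 8.74 and 11.7 CPM, a log2 fold change of -0.88 (SE 0.25, adjusted p = 0.029). The groups stood apart by less than the Controls differed among themselves, and this call was lost when any 1 of 4 of the 6 libraries was left out. Its partner chain Col11a2 held 11 counts in all libraries together and was not tested. The log2 ratio of Col2a1 to Col11a1 counts was 5.80, 5.55 and 5.97 in Control and 0.99, 1.49 and 1.46 in Pea3 TKO, so Col2a1 fell much further than Col11a1 (exact permutation p = 0.10, adjusted 0.18 over 11 chain pairs).

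The fibrillar collagen called higher was Col5a1 (chromosome 2 from 27886425 to 28039514), a chain of collagen V, which sits within collagen I fibrils and limits their width. It had 73.8, 88.7 and 86.9 CPM in Control and 148, 118 and 97.1 CPM in Pea3 TKO (log2 fold change 0.54, SE 0.16, adjusted p = 0.038). Replicate 3 was the lowest Pea3 TKO value and stood just above the Controls. This small increase was not called with the replicate number as a block (adjusted p = 0.059), nor in 5 of the 6 fits that left out 1 library. Its partner Col5a2 had 9.87, 5.48 and 10.2 CPM in Control and 10.2, 28.7 and 11.4 CPM in Pea3 TKO (adjusted p = 0.13).

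**Figure D3:**
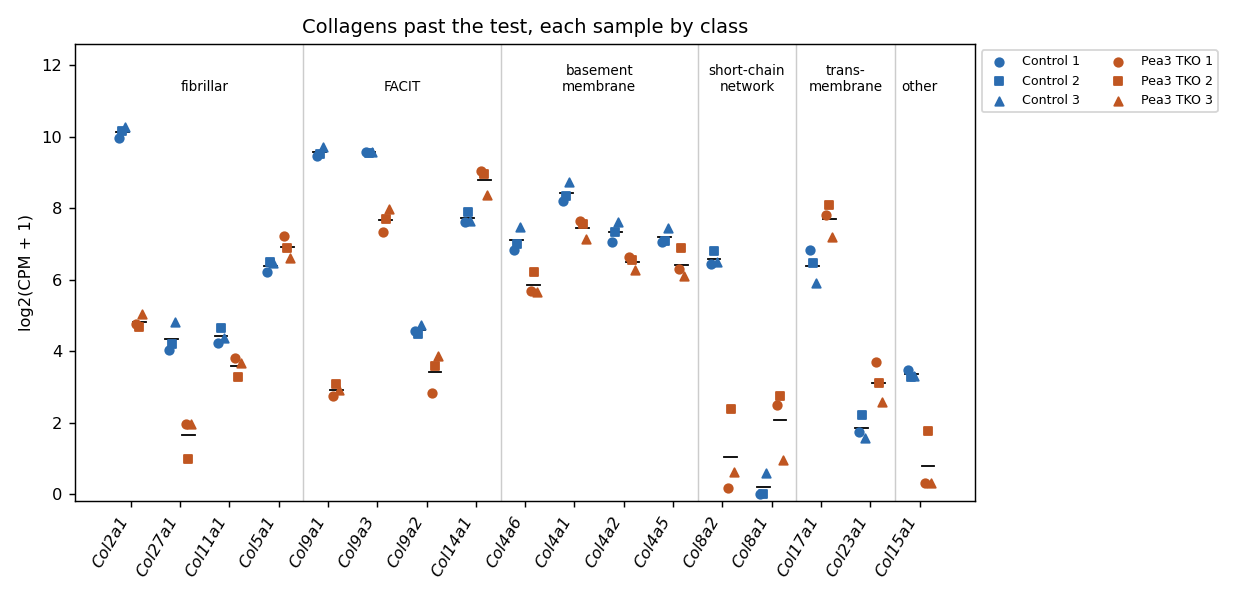
Level of the 17 collagens past the test (x axis, ordered by class) in each sample, as log2(CPM + 1) on the y axis. Blue points are Control and orange points Pea3 TKO, the marker shape gives the replicate, and black bars are means of the plotted values. In every gene the Control and Pea3 TKO points are separate, and Col2a1, Col9a1 and Col8a2 show the widest gaps.

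Col1a1 and Col1a2, the chains of collagen I, and Col3a1, the chain of collagen III, form the fibrils of mesenchyme and dermis. Col3a1 had 2.99, 6.42 and 53.3 CPM in Control and 119.5, 213 and 2.0 CPM in Pea3 TKO. Col1a1 had 1.86, 4.74 and 18.9 CPM in Control and 54.5, 70.8 and 1.23 CPM in Pea3 TKO. Col1a2 had 4.51, 4.36 and 21.3 CPM in Control and 80.1, 100.6 and 1.41 CPM in Pea3 TKO. In each of them Pea3 TKO replicates 1 and 2 were the highest libraries, Pea3 TKO replicate 3 was the lowest of all 6 and Control replicate 3 was the highest Control, so the groups overlapped. The log2 fold changes of 2.42, 2.31 and 2.60 had standard errors of 1.26, 1.09 and 1.08 and did not pass the test (adjusted p = 0.19, 0.15 and 0.11).

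All of these collagens were called higher once Pea3 TKO replicate 3 was left out, and had negative, uncalled values when that replicate alone was set against the Controls (-3.38 for Col3a1, -2.77 for Col1a1 and -2.82 for Col1a2) and with the Y-linked covariate over all libraries (-3.54, -2.90 and -2.95). The ratio of Col1a1 to Col1a2, chains of the same molecule, was the same in both groups within its spread (log2 -0.44 ± 0.73 and -0.42 ± 0.20, n = 3, exact permutation p = 1.0). Mesenchymal proteoglycans followed the same libraries. Decorin (Dcn) had 1.07, 0.249 and 4.42 CPM in Control and 69.7, 73.6 and 2.41 CPM in Pea3 TKO, and lumican (Lum) had 0.338, 1.43 and 8.39 CPM and 60.5, 79.9 and 2.06 CPM. Of 15 mesenchyme markers 14 were tested, with 3 higher (Dcn, Lum and Osr1) and 1 lower (Foxc2), a share of 28.6% called beside 25.0% of all tested genes. Their summed level was 480 to 534 CPM in Control and 683, 746 and 494 CPM in Pea3 TKO replicates 1 to 3, most of it from Foxc1, Foxc2, Snai2 and Vim. Twist1, a defining mesenchymal factor, was low, at 0.338, 0.872 and 0.78 CPM in Control and 4.83, 2.87 and 0.235 CPM in Pea3 TKO. Pea3 TKO replicates 1 and 2 were thus its highest libraries, as for Twist2 and Pdgfra. They were not the highest for Prrx1, Pdgfrb, Foxc2 and Osr1, and Tcf21 was at 0. The part of mesenchymal cells or of embryo sex in the collagen I and III values was not tested, and in bulk libraries more cells of a type and more RNA per cell cannot be told apart.

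**Figure D4:**
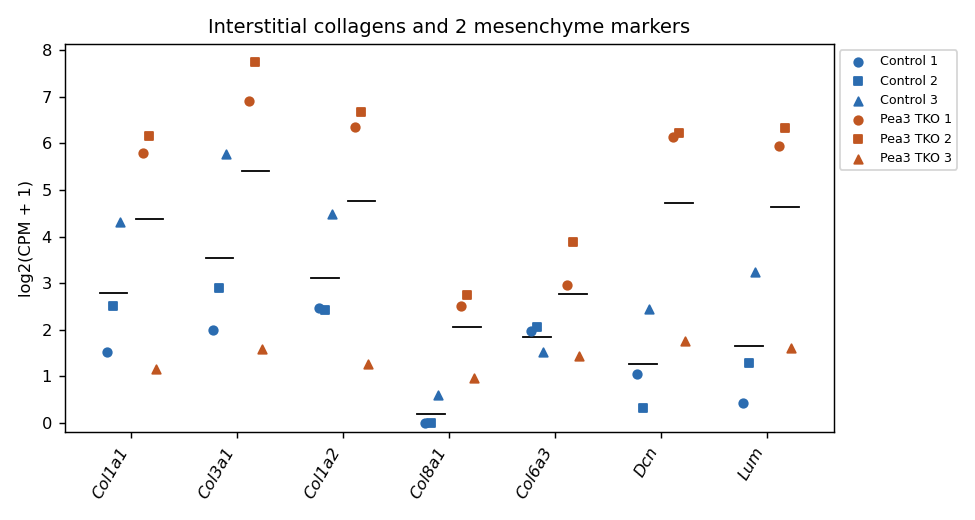
Level of the connective-tissue collagens Col1a1, Col3a1, Col1a2, Col8a1 and Col6a3 and of the mesenchyme markers Dcn and Lum (x axis) in each sample, as log2(CPM + 1) on the y axis. Marker shape gives the replicate and black bars the mean of the plotted values. Pea3 TKO replicates 1 and 2 lie above all Controls in each gene, whereas replicate 3 lies among or below the Controls in all but Col8a1.

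The remaining fibrillar collagens were scarce. Col24a1 reached at most 0.881 CPM in any library and was not called. Col5a3 was seen in 1 Control library alone, with 41 counts.

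Among the FACIT collagens 6 of 9 were tested, 3 were lower and 1 was higher, with a median log2 fold change of -0.26 that turned to 0.081 without a low-count filter. The 3 that fell were the chains of collagen IX, which decorates collagen II fibrils and in cartilage is a molecule of all of these chains. Col9a1 (chromosome 1 from 24177610 to 24252684) had 707, 731 and 838 CPM in Control and 5.72, 7.41 and 6.52 CPM in Pea3 TKO, a level 116-fold lower (log2 fold change -6.86, SE 0.16, adjusted p = 2.8e-08). Col9a3 (chromosome 2 from 180597790 to 180622189) had 764, 747 and 764 CPM in Control and 160, 207 and 254 CPM in Pea3 TKO, a level 3.66-fold lower (log2 fold change -1.87, SE 0.16, adjusted p = 9.5e-05). Col9a2 (chromosome 4 from 121039385 to 121055322) had 22.9, 21.2 and 25.7 CPM in Control and 6.10, 11.0 and 13.6 CPM in Pea3 TKO, 2.27-fold lower (log2 fold change -1.18, SE 0.30, adjusted p = 0.019). All of these chains were below every Control in each Pea3 TKO library, but to very unequal depths, and the Col9a2 call was lost without Control replicate 3 or Pea3 TKO replicate 2.

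The balance of the collagen IX chains therefore changed. Per kb of exon, Col9a1 stood at 0.758 of Col9a3 in Control and at 0.024 of it in Pea3 TKO. The log2 ratio of their counts was -0.11, -0.03 and 0.13 in Control and -4.80, -4.80 and -5.28 in Pea3 TKO, a difference of -4.95 (exact permutation p = 0.10, adjusted 0.18 over 11 pairs). Col9a2 was already scarce in Control, where Col9a1 was 19.9 times its level per kb, and in Pea3 TKO Col9a1 was 0.41 times its level (exact permutation p = 0.10, adjusted 0.18). Col9a2 itself rose slightly against Col9a3, by 0.65 on the log2 ratio scale, also without overlap (exact permutation p = 0.10, adjusted 0.18). Col9a3 remained the leading collagen IX chain of the mutant bud, with Col9a2 and Col9a1 at a small part of its level.

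Col9a1 has 2 annotated transcript starts 17593 bases apart, and the counts are summed over both, so they do not show which start was used. The windows from 250 bases before to 50 after each start are shown, with the window of Col8a2, described further on. Windows were sought for Col2a1, Col9a1, Col9a3 and Col8a2, and the promoter set used here holds none for Col2a1 and Col9a3. In the full comparison Col9a1 and Col8a2 had the deepest falls of the tested collagens, and Col9a1 fell further. Col8a2 fell further than Col9a1 for Pea3 TKO replicate 3 alone (-7.47 against -6.85) and with the Y-linked covariate (-7.68 against -6.87). It also did without Pea3 TKO replicate 2 (-8.13 against -6.95). Col6a6, not called in the full comparison (-0.20), was lower still for replicate 3 alone (-7.93) and with the covariate (-9.08). It had 0 counts in replicate 3. Sequences are from RefSeq (GRCm38.p6), all on the plus strand. Capitals mark the letters GGAA or their reverse complement TTCC, the core that ETS factors such as the Pea3 family recognize.
Col9a1, upstream start, chr1:24177360-24177659: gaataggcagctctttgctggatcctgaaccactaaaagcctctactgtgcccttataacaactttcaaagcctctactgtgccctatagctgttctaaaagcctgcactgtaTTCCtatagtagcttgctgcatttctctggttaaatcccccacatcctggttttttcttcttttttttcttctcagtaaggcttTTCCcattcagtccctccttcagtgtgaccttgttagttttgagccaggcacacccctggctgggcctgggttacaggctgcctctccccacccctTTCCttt
Col9a1, downstream start, chr1:24194953-24195252: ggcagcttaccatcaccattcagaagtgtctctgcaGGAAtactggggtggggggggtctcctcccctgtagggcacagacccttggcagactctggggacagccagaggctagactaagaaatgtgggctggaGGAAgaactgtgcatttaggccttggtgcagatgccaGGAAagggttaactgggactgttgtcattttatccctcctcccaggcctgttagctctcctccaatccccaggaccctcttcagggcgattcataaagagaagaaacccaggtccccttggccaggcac
Col8a2, chr4:126286544-126286843: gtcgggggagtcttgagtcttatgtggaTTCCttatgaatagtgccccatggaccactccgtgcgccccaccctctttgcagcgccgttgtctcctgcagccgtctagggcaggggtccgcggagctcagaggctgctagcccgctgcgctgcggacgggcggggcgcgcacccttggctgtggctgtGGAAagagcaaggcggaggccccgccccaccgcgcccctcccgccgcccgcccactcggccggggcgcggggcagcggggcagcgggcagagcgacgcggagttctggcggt

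The ETS core was found 3 times in each Col9a1 window and 2 times in the Col8a2 window, where 96.0% of 32851 promoter windows of this length hold it and the median window has 3. The Sox core words ACAAAG and ACAAT and the TATA word TATAAA, searched on both strands, were not found in these windows, and occur in 18.7%, 31.0% and 13.6% of all windows. None of the 4 words contains another. GC content was 47.3% and 55.7% in the Col9a1 windows and 71.7% in that of Col8a2, beside a median of 52.7% over all windows.

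Col14a1 (chromosome 15 from 55307750 to 55520803), a FACIT that binds interstitial fibrils, went the other way. It had 196, 239 and 200.0 CPM in Control and 524, 499.96 and 333 CPM in Pea3 TKO, 2.14-fold higher (log2 fold change 1.09, SE 0.18, adjusted p = 0.0022), and it was called in all 6 fits that left out 1 library. Replicate 3 was the lowest of the Pea3 TKO libraries, yet above every Control, and alone against the Controls it gave 0.66 (adjusted p = 0.070), and with the Y-linked covariate 0.64 (adjusted p = 0.056). Unlike collagens I and III, Col14a1 was abundant in every library. Col12a1, its close relative, had 1.97 to 3.51 CPM in Control and 2.995 to 8.04 CPM in Pea3 TKO, and Col16a1 had 7.05 to 9.91 and 5.46 to 21.96 CPM. Both overlapped between groups and were not called. Col19a1, the neighbour of Col9a1 9205 bases away on the opposite strand, had 2 counts in all libraries together.

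**Figure D5:**
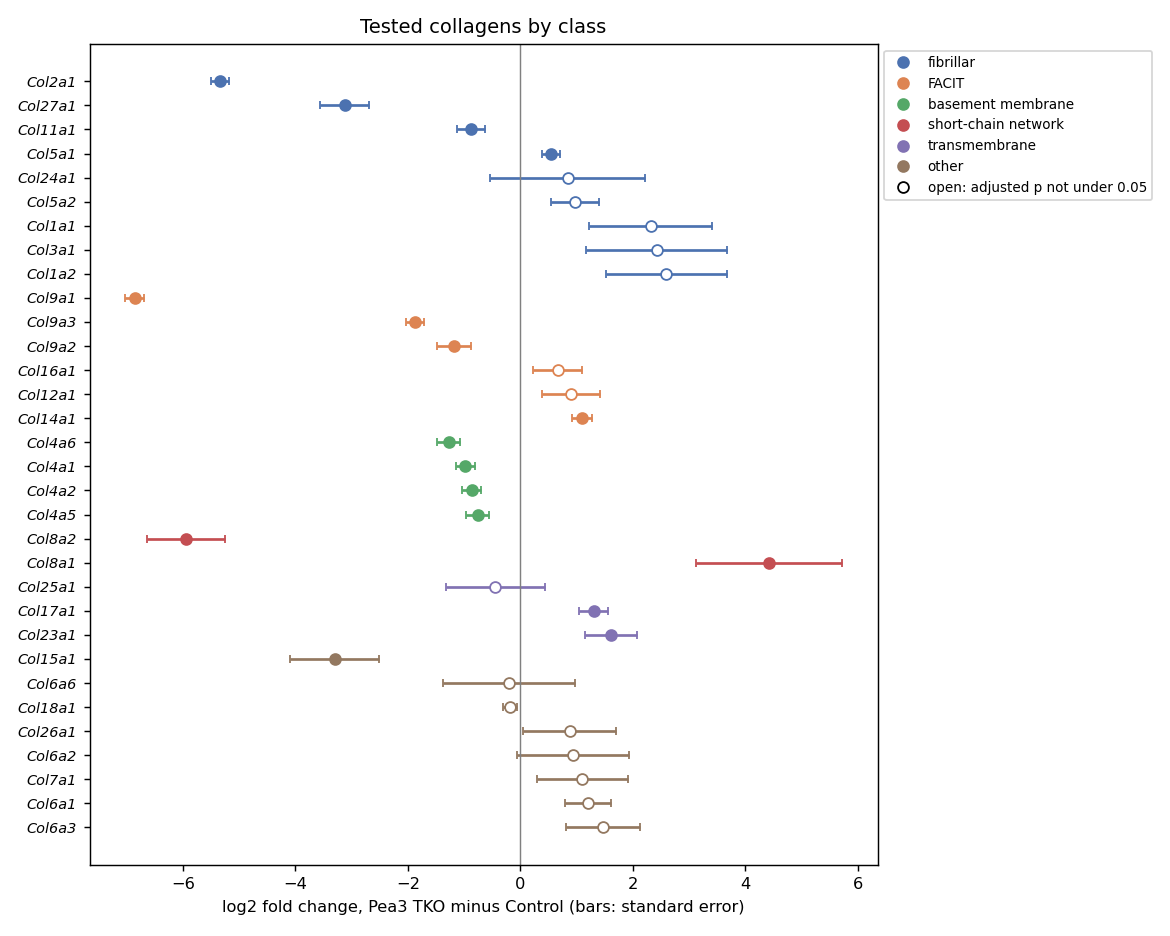
Log2 fold change (x axis, Pea3 TKO minus Control) of the 32 tested collagens (y axis), grouped and coloured by class, with standard errors as bars. Filled points passed the test and open points did not. All 4 collagen IV chains are filled and lie between -1.28 and -0.76, whereas the collagen VIII chains lie at -5.94 and 4.42.

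In the basement membrane class all 4 tested chains of 6 were lower, with a median log2 fold change of -0.92. Col4a1 and Col4a2 encode the chains of the collagen IV that every basement membrane holds, from genes that overlap by 22 bases at their starts on chromosome 8 (Col4a1 from 11198423 to 11312826, Col4a2 from 11312805 to 11449287) and are read in opposite directions. Col4a1 had 297, 323 and 422 CPM in Control and 199.8, 189 and 141 CPM in Pea3 TKO (log2 fold change -0.98, SE 0.17, adjusted p = 0.0036). Col4a2 had 131, 162 and 195 CPM in Control and 98.6, 93.4 and 75.9 CPM in Pea3 TKO (log2 fold change -0.87, SE 0.16, adjusted p = 0.0053). Each Pea3 TKO library was below each Control for both, and replicate 3 was the lowest. The log2 ratio of Col4a1 to Col4a2 counts was 1.10 ± 0.09 in Control and 0.98 ± 0.07 in Pea3 TKO, a difference not separable at this sample size (n = 3, exact permutation p = 0.30).

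Col4a5 and Col4a6 encode chains of a collagen IV found in basement membranes of some epithelia, from genes 1308 bases apart on the X chromosome (Col4a5 from 141475385 to 141689234, Col4a6 from 141165403 to 141474076) that are also read in opposite directions. Col4a6 had 113, 128 and 177 CPM in Control and 50.2, 73.3 and 49.6 CPM in Pea3 TKO (log2 fold change -1.28, SE 0.21, adjusted p = 0.0024). Col4a5 had 133, 134 and 175 CPM in Control and 77.9, 117 and 67.7 CPM in Pea3 TKO (log2 fold change -0.76, SE 0.20, adjusted p = 0.024). Both are X-linked, and in the Pea3 TKO library with Y-linked expression they were as low as in the others or lower, with -1.48 and -1.12 for it alone (adjusted p = 0.047 and 0.048). The Col4a5 call was lost when any 1 of 4 of the 6 libraries was left out. Unlike the other collagen IV pair, the log2 ratio of Col4a5 to Col4a6 did not overlap between groups, at 0.09 ± 0.13 in Control and 0.58 ± 0.12 in Pea3 TKO (n = 3, exact permutation p = 0.10, adjusted 0.18). In these libraries Col4a6 thus fell further than its neighbour, a difference that did not pass the adjusted threshold. The chains Col4a3 and Col4a4, known from mature kidney and lung, were scarce, with 7 and 31 counts in all.

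In the short-chain network class 2 of 3 members were tested, with 1 lower and 1 higher and a median log2 fold change of -0.76 that turned to 1.47 without Control replicate 3 and to 0.090 without a low-count filter. Col8a2 (chromosome 4 from 126286793 to 126314330) encodes a chain of collagen VIII, which builds the lattice under the corneal endothelium. It had 86.6, 112 and 89.7 CPM in Control and 0.127, 4.20 and 0.529 CPM in Pea3 TKO, 59.4-fold lower (log2 fold change -5.94, SE 0.70, adjusted p = 5.1e-04). Pea3 TKO replicate 2 kept 60 counts, where replicates 1 and 3 had 2 and 9, and without replicate 2 the log2 fold change was -8.13. Col8a1 (chromosome 16 from 57624258 to 57754737), the other chain, held 0, 0 and 8 counts in Control and 74, 81 and 16 counts in Pea3 TKO (log2 fold change 4.42, SE 1.29, adjusted p = 0.033). Its 2 highest values were in the libraries with high collagen I and decorin, and it was not called with the replicate number as a block (adjusted p = 0.074) or in 4 of the 6 fits that left out 1 library. Col10a1, the collagen of growth-plate cartilage, had 4 counts in all.

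Of the 4 transmembrane collagens 3 were tested and 2 were higher, with a median log2 fold change of 1.30. Col17a1 (chromosome 19 from 47646344 to 47692094) belongs to the hemidesmosome, which ties basal cells of stratified epithelia to the basement membrane. It had 112, 86.9 and 59.2 CPM in Control and 222, 271 and 145 CPM in Pea3 TKO (log2 fold change 1.30, SE 0.26, adjusted p = 0.0067), and it was called in all 6 fits that left out 1 library. It was not called with the Y-linked covariate (0.74, adjusted p = 0.20) or for replicate 3 alone against the Controls (0.76, adjusted p = 0.22). Col23a1 (chromosome 11 from 51289920 to 51583918), an epithelial membrane collagen, had 2.37, 3.68 and 1.95 CPM in Control and 11.9, 7.62 and 4.93 CPM in Pea3 TKO (log2 fold change 1.61, SE 0.47, adjusted p = 0.032), a call lost in 4 of those 6 fits and for replicate 3 alone (0.90, adjusted p = 0.50). In both genes replicate 3 was the lowest Pea3 TKO library and still above every Control. Col25a1 had 1.81 to 5.02 CPM in Control and 0.254 to 4.55 CPM in Pea3 TKO and was not called (adjusted p = 0.75). Col13a1 was not tested, with 79, 32 and 0 counts in Pea3 TKO replicates 1, 2 and 3 and no count in the Controls.

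In the mixed remaining class 8 of 11 were tested and 1 was lower, with a median log2 fold change of 0.91 that turned to -1.59 with the Y-linked covariate and -1.12 for replicate 3 alone, and was 0.13 without Pea3 TKO replicate 2. That member was Col15a1 (chromosome 4 from 47208161 to 47313167), a multiplexin of basement membrane zones. It had 10.1, 8.79 and 8.97 CPM in Control and 0.254, 2.38 and 0.235 CPM in Pea3 TKO, 9.74-fold lower (log2 fold change -3.30, SE 0.79, adjusted p = 0.015). As for Col8a2, the residual level was in replicate 2, and without it the log2 fold change was -5.20. The related multiplexin Col18a1, the source of endostatin, was among the most abundant collagens of both groups, at 444, 392 and 387 CPM in Control and 358, 404 and 315 CPM in Pea3 TKO. Its groups overlapped and it was not called (log2 fold change -0.18, SE 0.13, adjusted p = 0.33), in contrast to the basement membrane collagen IV chains.

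The collagen VI chains, which form beaded filaments around mesenchymal cells, stayed low. Col6a1 had 2.25, 3.37 and 2.99 CPM in Control and 7.43, 7.41 and 5.05 CPM in Pea3 TKO, without overlap, and missed the threshold (log2 fold change 1.21, SE 0.41, adjusted p = 0.058). Col6a2 and Col6a3 were highest in Pea3 TKO replicates 1 and 2, at up to 13.7 and 13.8 CPM, and lowest in replicate 3, at 0.294 and 1.70 CPM, and were not called (adjusted p = 0.54 and 0.13). Col7a1, the anchoring fibril under stratified epithelia, had 2.71, 0.872 and 4.16 CPM in Control and 4.06, 11.4 and 1.17 CPM in Pea3 TKO (adjusted p = 0.36), so it did not pass where Col17a1 did. Col6a6 and Col26a1 overlapped between groups as well. Col6a4 was not tested, with 0, 0 and 2 counts in Control and 17, 7 and 13 in Pea3 TKO, and Col6a5 and Col28a1 had no count in any library. In all, the 12 collagens not tested had 0 to 111 counts summed over the 6 libraries.

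With Pea3 TKO replicate 3 alone against the 3 Controls, 9 collagens were called, where 4.32% of all tested genes were. All 9 were lower and all 9 were among the 12 above: Col2a1, Col27a1, Col9a1, Col9a3, Col4a1, Col4a5, Col4a6, Col8a2 and Col15a1. At an unadjusted p under 0.05 this fit had 15 collagens lower and 2 higher. Over all 32 collagens tested in the full comparison, replicate 3 lay below every Control in 22, above every Control in 8 and among the Controls in 2. Neither count, at the unadjusted p or by position, was made over all tested genes, so these numbers have no background to be read against. With Y-linked expression as a covariate over all 6 libraries 8 collagens were called, all lower, where 5.94% of all genes were. With the replicate number as a block 15 were called (24.4% of all genes), and with DESeq2 18 were called (30.0% of all genes).

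The genes that make, process and bind collagens were followed beside the chains. Of 17 tested genes for the modification and folding of chains 6 were lower, against 11.3% of all genes, with a median log2 fold change of -0.40. They included Glt25d1 (Colgalt1), which adds galactose to hydroxylysine and fell from 209 ± 5.38 to 113 ± 19.1 CPM (n = 3, edgeR adjusted p = 0.0018), and Plod2, a lysyl hydroxylase, from 64.6 ± 3.34 to 35.9 ± 2.80 CPM (n = 3, edgeR adjusted p = 0.0023). Leprel1 (P3h2), a prolyl 3-hydroxylase that acts on collagen IV, fell from 42.0 ± 4.93 to 20.2 ± 4.89 CPM (n = 3, edgeR adjusted p = 0.0063). The collagen chaperone Serpinh1 remained abundant, at 830 to 1030 CPM in Control and 693 to 928 CPM in Pea3 TKO, and was not called. Of 8 tested secretion genes 1 was lower (12.5%, near the 11.3% of all genes), Sec24d, a coat protein of the vesicles that carry procollagen.

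Of 10 tested genes for processing and cross-linking 2 were lower and 1 higher, a share of 30% called, near the 25.0% of all genes. Adamts14, which trims the amino end of fibrillar procollagens, fell from 23.1, 25.4 and 46.5 CPM in Control to 4.38, 3.36 and 3.76 CPM in Pea3 TKO (log2 fold change -3.04, SE 0.32, adjusted p = 3.0e-04). Of the lysyl oxidase relatives, which cross-link fibrils, Loxl3 was lower (-1.70, adjusted p = 0.010) and Loxl2 higher (1.80, adjusted p = 0.020). Of 6 tested collagen receptors 2 were lower and 1 higher, 50% called beside the same 25.0%. Itga2, the collagen-binding integrin chain of epithelia, had 11.4, 6.42 and 10.4 CPM in Control and 0.445, 1.26 and 0.294 CPM in Pea3 TKO (log2 fold change -3.83, SE 0.60, adjusted p = 0.0020). Its partner Itgb1 fell less (-0.48, adjusted p = 0.015). Gpr56 (Adgrg1), an adhesion receptor for collagen III, rose from 56.0 ± 3.50 to 178 ± 16.8 CPM (n = 3, edgeR adjusted p = 3.9e-05).

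Among 8 chondrocyte markers 3 were tested and 2 were higher (Lect1 and Runx2), 66.7% beside 13.6% of all tested genes. Acan, the core protein of aggrecan, had no count in any Control, and Matn1 and Comp stayed at or below 0.585 CPM in every library. The summed level of that list was 5.72 to 16.9 CPM in Control and 38.6 to 56.0 CPM in Pea3 TKO. Nearly all of it came from Lect1, Hapln1 and Runx2, and Mia and Ucma, given below, were not in that list. Of 6 tested cartilage-type partners 2 were lower and 1 higher in Pea3 TKO, 50% called beside 25.0% of all genes. Mia, a small secreted cartilage protein, went from 90.5, 117 and 100.0 CPM to 37.5, 40.1 and 52.3 CPM, and Ucma had 59, 68 and 99 counts in Control and none in Pea3 TKO, at least 73.2-fold lower against a floor of 3 counts over the group. Lect1 (Cnmd, chondromodulin) rose from 3.95, 3.49 and 1.43 CPM to 31.2, 25.4 and 22.6 CPM (log2 fold change 3.15, SE 0.37, adjusted p = 5.1e-04).

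Sox9, with Sox5 and Sox6, is known to drive Col2a1 and collagen IX genes in cartilage. Of the SoxE and SoxD factors, which also include Sox8 and Sox10, 4 of 5 tested were lower, against 11.3% of all genes. Sox9 had 417, 397 and 321 CPM in Control and 274, 237 and 274 CPM in Pea3 TKO (log2 fold change -0.53, SE 0.13, adjusted p = 0.017), a small fall without overlap. Sox6 had 20.1, 26.1 and 26.3 CPM in Control and 8.95, 3.99 and 5.81 CPM in Pea3 TKO (log2 fold change -1.95, SE 0.32, adjusted p = 0.0024), and Sox8 had 2.82, 7.79 and 8.06 CPM and 0, 0.21 and 0 CPM. Sox10 was also called (-2.43, adjusted p = 2.2e-04), and Sox5 was not (-0.79, adjusted p = 0.29). All 7 small proteoglycans that bind fibrils were tested and had positive values, and 3 were called higher (Dcn, Lum and Prelp, 42.9% beside 13.6% of all genes), each of them with overlapping groups. Summed levels of the markers of other tissues overlapped between the groups. They ran from 0.411 to 7.76 CPM for endothelium, 0.0635 to 3.74 for muscle, 0.187 to 24.5 for macrophages, 3.12 to 7.2 for glia and melanocytes, 46.9 to 381 for blood and 127 to 802 for lens and retina, with Cryaa at 593 CPM in Control replicate 2.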

How the data were processed

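Lacrimal gland epithelium of 3 Control and 3 Pea3 TKO samples (E14.5) was captured by laser, and its RNA was amplified and sequenced. The authors deposited raw counts of reads per gene symbol, 1 table per library. The submitters' processing notes name bcl2fastq 2.17, STAR 2.5.2b, featureCounts 1.5.0-p3, DESeq and the build mm10, and whether counting used strand is not given in the sources used here. Amplification of captured RNA can add spread to low genes.

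From the counts, genes were kept by filterByExpr, normalized by TMM and tested with edgeR 4.0.16 (R 4.3.3), with condition as the only term. The SE of a log2 fold change is its size divided by the root of the F value. CPM uses the TMM library size. At these depths 3 counts are 0.17 to 0.21 CPM. Lengths and positions are from GENCODE M21 (GRCm38), which covered all 44 collagens. Shares and chain ratios (0.5 added to each count) were compared by exact permutation. Replicates differed beyond counting noise (chi-square per degree of freedom of at least 16.0). The code was tested on simulated counts.

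Classes, companion lists, markers and the rule for named genes (every called collagen, the highest of each class and Col2a1, Col9a1, Col9a3 and Col8a2, with up to 4 called genes of each companion list) were chosen with earlier results of these data known. Of the collagens, 35 had a promoter in the RefSeq table. Alternatives covered DESeq2 1.42.0, other scalings and filters, the replicate block, a Y-linked covariate and leaving out each library. The fit on the libraries with Y-linked counts was added after the data were seen.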

Additional observations from a re-analysis of the deposited data

How the results depend on the processing

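The 17 calls among collagens stood under RLE size factors, library size alone, both other low-count filters and DESeq2. The filters added Col13a1 and DESeq2 added Col6a1. Leaving out each library gave 12 to 20 calls, with 9 to 12 lower and 2 to 10 higher, the 10 without Pea3 TKO replicate 3. The replicate numbers are not stated to pair the samples, and whether they do is not known. Correlations of deviations were 0.13, -0.04 and -0.00092 for shared numbers and -0.106 to 0.128 for unshared ones. With the replicate block 3 collagens were higher, Col5a1 and Col8a1 being lost, and the other 15 calls were kept. With the Y-linked covariate 8 collagens were called and 0 were higher by edgeR (2 higher at an unadjusted p under 0.05, and 6 higher by DESeq2 without the covariate), as 778 genes in all were called instead of 3268. With the Y-expressing libraries alone 9 were called and 0 were higher (2 at an unadjusted p under 0.05), of 597 genes in all. These fits have fewer residual degrees of freedom, and the cause of the lost calls was not tested.

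Class medians of the log2 fold change moved with the Y-linked covariate and with the Y-expressing libraries alone, respectively to -2.74 and -2.77 for fibrillar (0.84 in the full comparison), -0.73 and -0.69 for FACIT, -1.23 and -1.29 for basement membrane, -2.65 and -2.53 for short-chain network, -1.59 and -1.12 for other and -1.13 and -1.12 for all collagens. Fibrillar, other and all collagens thus changed sign in these fits, which both rest mainly on Pea3 TKO replicate 3, and the cause was not tested. Without a low-count filter the FACIT median was 0.081 and the short-chain median 0.090, since more genes with few counts entered. The short-chain median rests on 2 or 3 genes and ran from -2.07 to 1.47 when each library was left out, with 1.47 without Control replicate 3. Leave-one-out ranges were 0.46 to 1.23 for fibrillar, -0.56 to -0.11 for FACIT, -1.04 to -0.77 for basement membrane, 1.10 to 1.69 for transmembrane, 0.13 to 1.38 for other and 0.12 to 0.82 for all collagens.

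Per kb of exon, the difference in share of collagen was -6.18 percentage points for fibrillar, -12.7 for FACIT, -2.68 for short-chain network and 9.48 for transmembrane collagens, each in the same direction as for counts (-11.3, -6.02, -1.92 and 8.39). Leaving out each library kept all 6 directions. It gave 6 to 7 of 11 chain ratios without overlap, beside 6 with all libraries. That count cannot fall when a library is dropped, so it does not show stability. Of the 17 called collagens and Col18a1, none changed sign under the alternatives run. Col1a1, Col1a2, Col3a1, Col6a2, Col6a3, Col7a1, Col16a1 and Col26a1, none of them called in the full comparison, turned from positive to negative with the Y-linked covariate (-0.70 for Col16a1 to -3.81 for Col6a2). They did so too with the Y-expressing libraries alone (-0.63 for Col6a3 to -3.77 for Col6a2), a fit that rests on the same Pea3 TKO replicate 3 and is not a separate result. Depth limits collagens near the floor of 3 counts, such as Col8a1 in Control.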
